A study of Mus musculus with 3 samples.

Results

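The heparan sulfate genes described here are 10 genes measured in mouse liver RNA: the glypicans Gpc1 and Gpc4, the syndecans Sdc1, Sdc2, Sdc3 and Sdc4, the sulfatases Sulf1 and Sulf2, and the chain-building enzymes Ndst1 and Ext1. They were taken by symbol from a table of 35275 genes, and each of the 10 symbols matched 1 row. Sulf2 and Gpc1 were selected on these same FPKM values, for being higher in the NASH library than in control and lower with hormone, so their values are given as a description. The series holds 3 liver libraries of male C57BL/6J mice, 1 library a group, from animals aged 10 weeks at the start of feeding. For the control library mice ate normal chow without hormone. The NASH library (nonalcoholic steatohepatitis) is of untreated mice on western diet plus liquid fructose, abbreviated WDF in the labels, and its label names 24 weeks. The TH-treated NASH library is of mice kept on that diet for 16 weeks and then given the thyroid hormones T3 (35 ng/g) and T4 (7 ng/g) in drinking water with 15% fructose over the next 8 weeks. Values with hormone are those of TH-treated NASH. The labels name the strain also as C57BL/6, list no other allele, and do not say how many animals a library holds.

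Heparan sulfate proteoglycans are proteins that carry long sulfated sugar chains at the cell surface or in the matrix. Syndecans span the membrane, glypicans are held to it by a lipid anchor, and their chains bind growth factors, chemokines, lipases and lipoproteins. Chains are polymerised by the EXT enzymes and sulfated in the Golgi, beginning with the NDST enzymes, and the extracellular sulfatases SULF1 and SULF2 later remove 6-O-sulfate groups from finished chains. In the liver, hepatocyte heparan sulfate, much of it on syndecan-1, takes up remnants of triglyceride-rich lipoproteins.

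The libraries held 38303410 to 54576236 fragments on genes, and values are FPKM, fragments per kilobase of gene scaled to the library's fragments on genes. With 1 library a group there was no spread between animals and no test. Intervals in brackets are 95% counting intervals, which cover counting error only and not the spread between animals. PCR copies are not independent molecules, so the intervals may be too narrow even for counting error. A gene was called higher or lower where its ratio on the log2(FPKM + 1) scale, which understates the change of low genes, reached 1.5-fold. Under the male label, Xist stood at no more than 0.0113 FPKM and Ddx3y at 13.4 to 17.3 FPKM. Alb, albumin, stood at 14907 to 32685 FPKM, and Dio1, a classic thyroid hormone target, at 90.3 FPKM in control, 129 in NASH and 429.7 with hormone. Median-of-ratios scaling moved the median log2 ratio of all genes from 0.12 to -0.06 for NASH against control and from 0.11 to -0.03 for TH-treated NASH against control.

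Of the 10 genes, 9 reached 1 FPKM in at least 1 library and entered the counts, which covered 11835 genes in all. Sulf1 stayed below that level. In NASH against control, 3 of the 9 were higher (Sulf2, Gpc1 and Sdc3) and 0 lower, against 10.3% of all genes higher and 2.53% lower. In TH-treated NASH against NASH, 1 was higher (Sdc1) and 3 were lower (Gpc1, Sulf2 and Ndst1), against 8.42% of all genes higher and 9.02% lower. In TH-treated NASH against control, 1 was higher (Sdc3) and 1 lower (Ndst1), against 15.5% and 6.86% of all genes. Sulf2 and Gpc1 were both higher in NASH and lower again with hormone because they were picked for it, and 2.43% of all genes did the same. Each pair of these comparisons shares a library. The median log2 ratio of the 9 genes was -0.03, -0.26 and -0.03 in these comparisons, beside 0.12, -0.04 and 0.11 for all genes. Of all genes past the threshold, 80.3% were higher in NASH against control as deposited and 60.03% after median-of-ratios scaling. For TH-treated NASH against NASH the share was 48.3% as deposited and 34.8% with FPKM scaled to equal sums. For TH-treated NASH against control it was 69.3% as deposited and 48.9% after trimmed mean scaling.

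**Figure D1:**
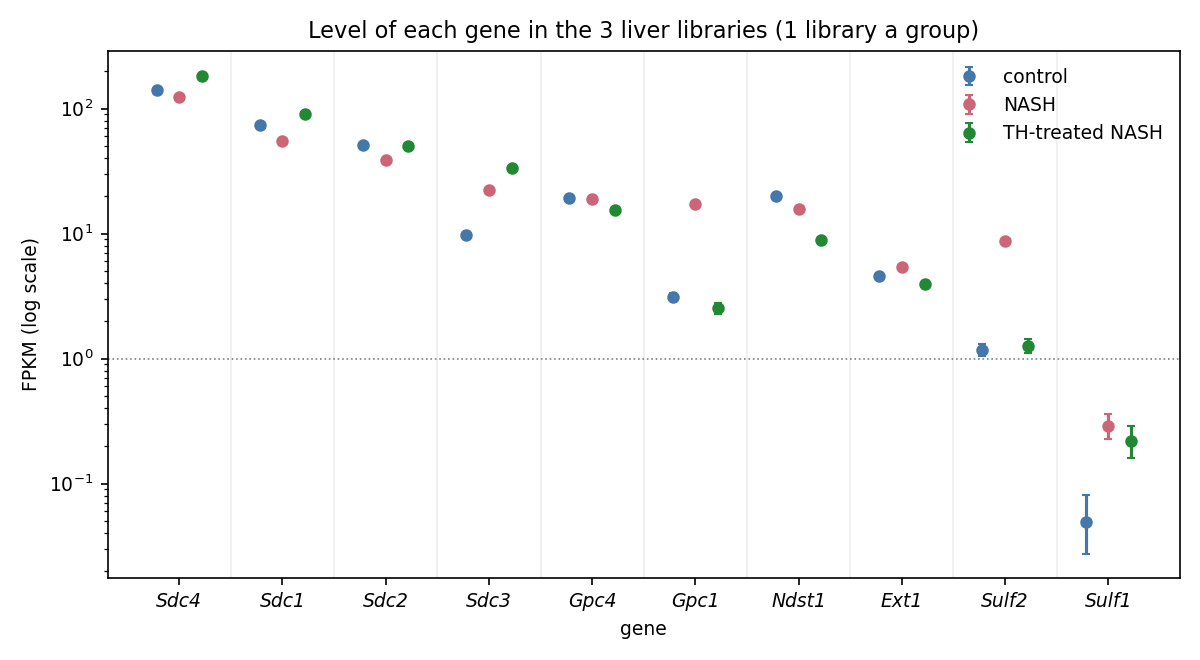
FPKM (log axis) of each of the 10 genes in control, NASH and TH-treated NASH, 1 point a library, with bars for the 95% counting interval of that library and a dotted line at 1 FPKM. Sulf2 and Gpc1 were high in NASH alone, Sdc3 was lowest in control and highest in TH-treated NASH, and Ndst1 was lowest in TH-treated NASH.

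Sulf2, the sulfatase that trims 6-O-sulfate from heparan sulfate outside the cell, was high in NASH alone. It stood at 1.18 FPKM in control (1.05 to 1.32, 294 fragments), 8.74 in NASH (8.35 to 9.14, 1881 fragments) and 1.27 with hormone (1.10 to 1.44, 222 fragments). The NASH library was far above the other 2, whose counting intervals overlapped. Sulf2 was 7.43-fold higher in NASH than in control (6.57 to 8.43) and 6.90-fold lower in TH-treated NASH than in NASH (6.00 to 7.97). TH-treated NASH against control gave a fold of 1.08 (0.900 to 1.29), with a log2(FPKM + 1) ratio of 0.06 that turned to -0.04 under median-of-ratios scaling and -0.05 under trimmed mean scaling. In control 10284 genes had a higher FPKM than Sulf2, in NASH 4870 and in TH-treated NASH 10557. Its relative Sulf1, which catalyses the same reaction, was scarce throughout, at 0.0491 FPKM in control, 0.289 in NASH and 0.219 with hormone, on 15, 76 and 47 fragments. Control was thus the lowest library for Sulf1, and the intervals of NASH (0.228 to 0.361) and TH-treated NASH (0.161 to 0.291) overlapped. The FPKM of Sulf2 was 23.96 times that of Sulf1 in control, 30.3 times in NASH and 5.77 times with hormone, so Sulf2 made up 96.0%, 96.8% and 85.2% of the summed FPKM of both sulfatases. Sulf2 (ENSMUSG00000006800) lies on chromosome 2 from 166073089 to 166155663, minus strand, and Sulf1 (ENSMUSG00000016918) on chromosome 1 from 12692277 to 12861192, plus strand, as the deposited table gives them. The table has a build not given in the sources used here. All 10 genes overlap their GENCODE M21 (GRCm38) entries, and 8 have the same start and end. The opposite-strand coactivator gene Ncoa3 overlaps Sulf2 in the table and stood at 3.15, 3.47 and 3.47 FPKM in control, NASH and TH-treated NASH.

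The bases before the start of Sulf2 and Sdc3 are shown because both genes were called higher in NASH than in control, while with hormone Sulf2 was lower than in NASH and Sdc3 was not. Windows of 5 of the 10 genes were used, 6 in all, and no window of the other genes was examined. Of these 6, the printed 2 were the only ones that lie wholly outside the deposited gene spans. They come from RefSeq (GRCm38.p6), 250 bases before the annotated start, 5′ to 3′ on the strand of the gene, at chr2:166155684-166155933 (minus strand) for Sulf2 and chr4:130792287-130792536 (plus strand) for Sdc3. Capitals mark matches on either strand to the GC box GGGCGG, the TATA box TATAAA, the nuclear receptor half-site AGGTCA, the E-box CACGTG or the AP-1 site TGANTCA, and no match shown overlaps another.
Sulf2: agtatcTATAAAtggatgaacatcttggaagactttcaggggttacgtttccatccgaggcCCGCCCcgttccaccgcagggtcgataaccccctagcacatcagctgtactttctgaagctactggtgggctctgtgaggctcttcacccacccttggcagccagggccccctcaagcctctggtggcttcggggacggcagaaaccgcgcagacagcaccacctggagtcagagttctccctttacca
Sdc3: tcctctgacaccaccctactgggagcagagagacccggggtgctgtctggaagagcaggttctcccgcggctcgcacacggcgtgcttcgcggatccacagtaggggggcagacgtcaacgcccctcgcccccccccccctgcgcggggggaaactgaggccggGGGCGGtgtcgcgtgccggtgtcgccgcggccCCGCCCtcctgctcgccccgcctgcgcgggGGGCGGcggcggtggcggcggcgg
The printed Sulf2 window held 1 GC box, at bases 189 to 184 before the start, and 1 TATA box, at bases 244 to 239 before it. A second Sulf2 window, before another annotated start, at chr2:166155286-166155535, lies inside the deposited span and held none of these motifs. The Sdc3 window held 3 GC boxes, the nearest at bases 24 to 19 before the start. Its GC content was 76.4%, against 57.2% for the printed Sulf2 window and a median of 52.4% over 32851 windows of the same length. Of these windows 32.7% held a GC box, 12.4% a TATA box and 14.0% the half-site through which thyroid hormone receptors bind DNA. Neither printed window held the half-site, which says only that these letters are not there. Among the 6 windows used, of Sulf2, Sdc1, Sdc3, Sdc4 and Gpc4, the half-site occurred in 2, those of Sdc4 and Gpc4.

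Gpc1, a glypican that holds growth factors at the cell surface, was selected for the same profile as Sulf2, and Gpc4 did not share it. Gpc1 stood at 3.11 FPKM in control (2.89 to 3.35, 709 fragments), 17.4 in NASH (16.8 to 18.0, 3410 fragments) and 2.52 with hormone (2.28 to 2.78, 403 fragments). The NASH library was highest and TH-treated NASH slightly below control, with intervals that did not overlap. Gpc1 was 5.58-fold higher in NASH than in control (5.15 to 6.06), 6.89-fold lower in TH-treated NASH than in NASH (6.22 to 7.66) and 1.23-fold lower in TH-treated NASH than in control (1.09 to 1.40). Gpc4 stood at 19.3 FPKM in control (18.6 to 20.01), 18.9 in NASH (18.1 to 19.7) and 15.6 with hormone (14.8 to 16.4). Control and NASH overlapped for Gpc4 and TH-treated NASH was lower, by 1.21-fold against NASH (1.14 to 1.29), which is inside the threshold. Per length, Gpc4 was 6.197 times as high as Gpc1 in control and 6.18 times in TH-treated NASH, but 1.09 times in NASH. Gpc1 thus made up 13.9% of the summed FPKM of both in control and in TH-treated NASH and 47.9% in NASH. Gpc1 (ENSMUSG00000034220) lies on chromosome 1 from 92831645 to 92860779 and Gpc4 (ENSMUSG00000031119) on chromosome X from 52053021 to 52165252. The antisense genes that overlap Gpc1 in the table held 1 fragment in NASH and 0 in the other libraries.

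Sdc4, Sdc1 and Sdc2 were, per length, the most abundant of the 10 genes in every library, and Sdc3 differed from them in its profile. Sdc4, a syndecan of cell adhesion sites, stood at 141 FPKM in control (139 to 143), 123 in NASH (121 to 125) and 184 with hormone (181 to 187). Sdc1, the main remnant receptor among hepatocyte proteoglycans, stood at 73.5 FPKM in control (72.3 to 74.8), 55.01 in NASH (53.8 to 56.2) and 90.5 with hormone (88.8 to 92.2). Sdc2, known for its abundance in liver and in mesenchymal cells, stood at 51.2 FPKM in control (50.1 to 52.2), 38.8 in NASH (37.8 to 39.7) and 50.2 with hormone (48.96 to 51.4). NASH was the lowest library for all 3. In NASH against control they were 1.15-fold (1.12 to 1.17), 1.34-fold (1.30 to 1.37) and 1.32-fold (1.28 to 1.36) lower for Sdc4, Sdc1 and Sdc2, within the threshold as deposited. Under median-of-ratios scaling Sdc1 and Sdc2 passed it, with log2 ratios of -0.63 and -0.60, and under trimmed mean scaling Sdc1 alone. In TH-treated NASH against NASH, Sdc1 was 1.65-fold higher (1.60 to 1.69), past the threshold, and Sdc2 1.29-fold (1.25 to 1.34). Sdc4 was 1.49-fold higher there (1.46 to 1.53), just under it. Under median-of-ratios scaling Sdc4 passed the threshold there, with a log2 ratio of 0.61.

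Sdc3, a syndecan best known from the nervous system and also present on macrophages, had another order of levels. It stood at 9.79 FPKM in control (9.42 to 10.2, 2656 fragments), 22.2 in NASH (21.6 to 22.8, 5198 fragments) and 33.3 with hormone (32.5 to 34.2, 6352 fragments). None of these intervals overlapped. Sdc3 was 2.27-fold higher in NASH than in control (2.17 to 2.38), 1.4998-fold higher in TH-treated NASH than in NASH (1.45 to 1.56), just under the threshold on the log2(FPKM + 1) scale, and 3.41-fold higher in TH-treated NASH than in control (3.26 to 3.57). Under median-of-ratios scaling Sdc3 passed the threshold in TH-treated NASH against NASH (log2 ratio 0.60). Gm26716, an antisense gene that overlaps Sdc3 in the table, stood at 1.41, 3.49 and 6.35 FPKM in control, NASH and TH-treated NASH. These values rest on 32, 68 and 101 fragments. With a strand mode not given in the sources used here, reads of an antisense pair cannot be told apart. The summed FPKM of the 4 syndecans was 276 in control, 239 in NASH and 358 with hormone. Sdc4 held 51.2%, 51.5% and 51.4% of it, and Sdc3 3.55%, 9.30% and 9.32%, so its share was nearly the same in both diet-fed libraries while the sum was 1.497 times as high with hormone. Sdc2 held 18.6%, 16.2% and 14.0%. Sdc1 (ENSMUSG00000020592) lies on chromosome 12 from 8771323 to 8793715, Sdc2 (ENSMUSG00000022261) on chromosome 15 from 32920723 to 33034730, Sdc3 (ENSMUSG00000025743) on chromosome 4 from 130792537 to 130826319 and Sdc4 (ENSMUSG00000017009) on chromosome 2 from 164424247 to 164443887.

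**Figure D2:**
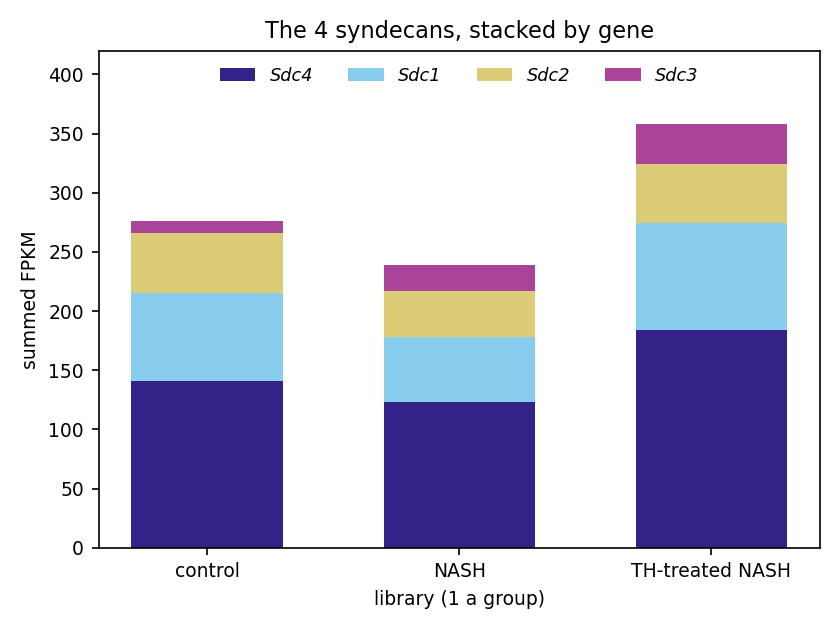
Summed FPKM of the 4 syndecans in each library, 1 bar a library, stacked by gene. The sum was 276 in control, 239 in NASH and 358 with hormone, and the Sdc3 layer was 3.55% of it in control and 9.30% and 9.32% in the other libraries.

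Ndst1, which replaces acetyl by sulfate groups on the growing chain and so opens it to later sulfation, was lowest in TH-treated NASH. It stood at 20.1 FPKM in control (19.6 to 20.6, 6666 fragments), 15.7 in NASH (15.3 to 16.2, 4492 fragments) and 8.90 with hormone (8.52 to 9.29, 2069 fragments), with no overlap between intervals. Ndst1 was 1.28-fold lower in NASH than in control (1.23 to 1.33), 1.77-fold lower in TH-treated NASH than in NASH (1.68 to 1.86) and 2.26-fold lower in TH-treated NASH than in control (2.15 to 2.38). With a pseudocount of 5 FPKM its log2 ratio of TH-treated NASH to NASH was -0.58, just inside the threshold. Ext1, a subunit of the enzyme that polymerises the chain, varied less, at 4.55 FPKM in control (4.35 to 4.76), 5.37 in NASH (5.14 to 5.62) and 3.95 with hormone (3.72 to 4.18). NASH was its highest library, and no pair of libraries differed by 1.5-fold. The FPKM of Ndst1 was 17.1 times that of Sulf2 in control, 1.80 times in NASH and 7.03 times with hormone. Ndst1 (ENSMUSG00000054008) lies on chromosome 18 from 60685978 to 60713389 and Ext1 (ENSMUSG00000061731) on chromosome 15 from 53064038 to 53346159.

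The order of levels, per length, differed between libraries. In control it ran Sdc4, Sdc1, Sdc2, Ndst1, Gpc4, Sdc3, Ext1, Gpc1, Sulf2 and Sulf1, and the intervals of Ndst1 and Gpc4 overlapped. In NASH it ran Sdc4, Sdc1, Sdc2, Sdc3, Gpc4, Gpc1, Ndst1, Sulf2, Ext1 and Sulf1, so Gpc1 had passed Ndst1 and Ext1 and Sulf2 had passed Ext1. In TH-treated NASH both were again below Ext1, and Gpc4 was above Ndst1. Counting intervals of neighbours did not overlap in these orders, apart from that of Ndst1 and Gpc4 in control, and no interval here includes the spread between animals.

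**Figure D3:**
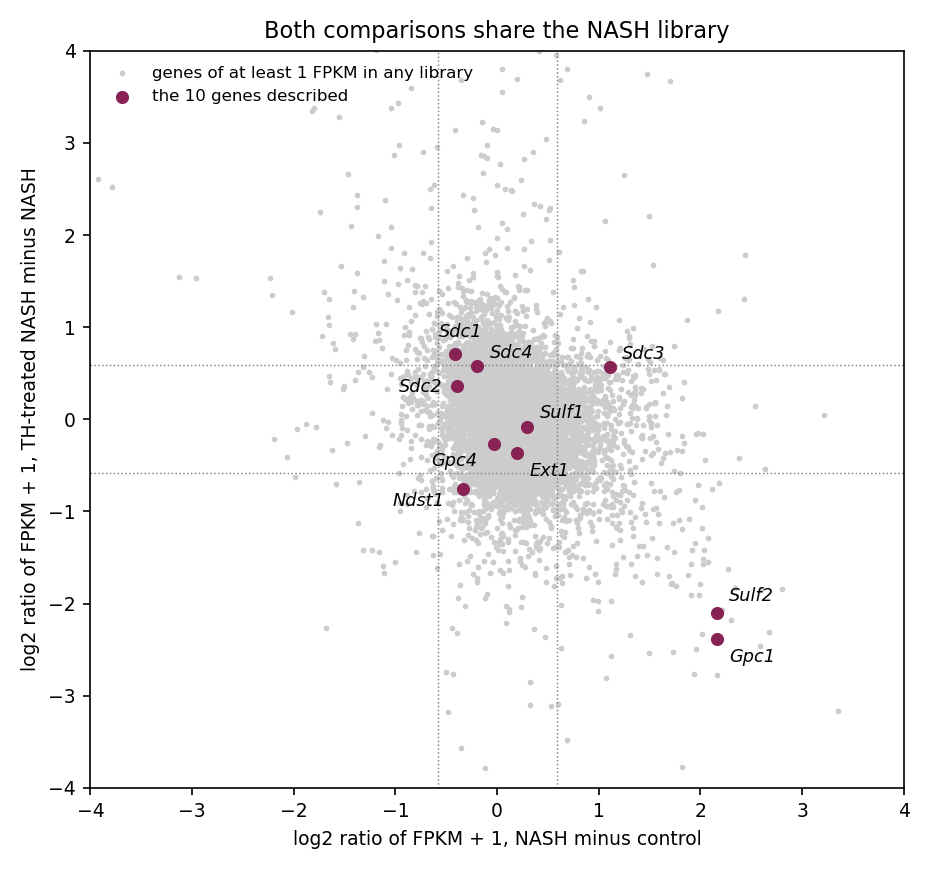
Log2 ratio of FPKM + 1 of NASH minus control (x) against TH-treated NASH minus NASH (y) for genes of at least 1 FPKM in any library (grey) and the 10 genes described (purple, Sulf1 included), with dotted lines at 1.5-fold. Both axes share the NASH library, and 24 grey points lie outside the axes. Sulf2 and Gpc1 lie at the lower right, Sdc3 at the right, and Sdc1, Sdc2 and Sdc4 at the upper left of the centre.

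Genes with a profile like that of Sulf2 or Gpc1 were listed as a description, since the likeness uses the same values on which both were selected. By the distance between the log2(FPKM + 1) ratios of NASH to control and of TH-treated NASH to NASH, over 3 libraries and 6972 candidate genes of at least 5 FPKM in any library, the genes most like Sulf2 were the glutathione S-transferase Gstm3 (distance 0.27), Gpc1 (0.28), the monoacylglycerol acyltransferase Mogat1 (0.33), the keratin Krt23 (0.44) and the collagen chain Col1a1 (0.50). Those most like Gpc1 were Gstm3 (0.15), Krt23 (0.23), Sulf2 (0.28), the predicted gene Gm11752 (0.39) and the macrophage glycoprotein Gpnmb (0.43). Sulf2, Gpc1 and the genes listed, apart from Gstm3, reached 5 FPKM in NASH alone, the library where they were highest. Gstm3 stood at 32.3 FPKM in control, 134 in NASH and 25.8 with hormone.

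The wider heparan sulfate pathway was read from 10 lists with 132 genes, of which 95 reached 1 FPKM in at least 1 library. Of 5 other core proteins at that level, 1 was higher in NASH than in control, the granule proteoglycan Srgn at 8.34 against 4.19 FPKM, and 0 were lower. In TH-treated NASH against NASH, 1 of the 5 was higher, the coreceptor Tgfbr3 at 2.80 against 1.503 FPKM, a call lost with FPKM scaled to equal sums (log2 ratio 0.53). Gpc5 had 0 fragments in all libraries. Of 10 genes of linkage and polymerisation, 1 was higher in NASH, Extl1 at 4.73 against 2.25 FPKM, and 0 passed the threshold with hormone. Of 6 genes of sulfation and epimerisation, 0 passed it in either comparison. Ndst1, a member and so not in this list, was 1.77-fold lower in TH-treated NASH than in NASH. Ext1 was likewise left out of the polymerisation list. Hs6st1, named after its values were seen because it adds the 6-O-sulfate that Sulf2 removes, stood at 41.4 FPKM in control, 42.2 in NASH and 52.5 with hormone. The medians of these lists were 0.16, 0.20 and -0.17 in NASH against control, beside 0.12 for all genes, and lay between -0.04 and 0.06 in TH-treated NASH against NASH, beside -0.04 for all genes.

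Of 9 genes that make or carry the sugar and sulfate donors for chain synthesis, 1 was higher in NASH than in control, Ugp2, which makes UDP-glucose, at 214 against 131 FPKM. That call was lost under median-of-ratios and trimmed mean scaling (log2 ratios of 0.50 and 0.54). In TH-treated NASH against NASH 4 of the 9 were lower and 1 higher, with a median of -0.25, beside 9.02% lower and 8.42% higher among all genes. The difference between the comparisons was not tested. Ugdh, which makes the UDP-glucuronic acid built into the chain, stood at 60.9 FPKM in control, 46.9 in NASH and 12.7 with hormone, 3.68-fold lower with hormone than in NASH. Ugp2 stood at 71.7 FPKM in TH-treated NASH, 2.99-fold lower than in NASH. The sulfate donor synthases lay on opposite sides, Papss1 from 7.51 FPKM in NASH to 3.46 in TH-treated NASH and Papss2 from 44.7 to 107. These donors also serve glucuronidation and sulfation of small molecules in liver. Among 11 genes of chain degradation, 1 was higher in NASH than in control and 1 lower in TH-treated NASH than in NASH, in both cases the lysosomal sulfatase Arsg, at 5.16 FPKM in control, 13.6 in NASH and 7.86 with hormone.

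Genes around the cell surface followed several patterns. Of 7 genes of ectodomain shedding and its inhibition, 3 were higher in NASH than in control and 0 lower, with a median of 0.40, and 1 of the 3, Timp3, was lost under median-of-ratios and trimmed mean scaling (log2 ratios of 0.43 and 0.47). Timp1, a metalloproteinase inhibitor, stood at 0.270 FPKM in control, 2.75 in NASH and 0.917 with hormone. Mmp2, a metalloproteinase, stood at 0.549, 2.24 and 0.765 FPKM in the same order. Both reached 1 FPKM in NASH alone, so they entered these counts only through the library where they were highest. With hormone 2 of the 7 were lower than in NASH (these genes) and 1 was higher, the membrane metalloproteinase Mmp14 at 27.2 against 17.0 FPKM. The call of Mmp14 was lost with FPKM scaled to equal sums (log2 ratio 0.55). Of 14 listed chondroitin and dermatan sulfate proteoglycans and relatives of these, 6 reached 1 FPKM. These 6 were higher in NASH than in control, with a median of 1.13. Among them were Bgn, a matrix proteoglycan, at 55.6 against 25.8 FPKM, and Lum, its relative, at 8.13 against 2.23 FPKM. With hormone 1 of the 6 was lower than in NASH, Cd74, the class II invariant chain, at 83.3 against 177 FPKM. Prelp was also lower with FPKM scaled to equal sums (log2 ratio -0.67). Of 8 chondroitin and dermatan sulfate enzymes, 1 was higher in NASH, Dse, an epimerase, at 3.07 against 1.62 FPKM. Dse was lost under median-of-ratios and trimmed mean scaling (log2 ratios of 0.49 and 0.52). With hormone 0 of the 8 passed the threshold. With FPKM scaled to equal sums Chpf was also higher in NASH (log2 ratio 0.60) and Chst13 was lower with hormone (-0.60).

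Ligands and partners of heparan sulfate in lipoprotein clearance and growth factor signalling lay on both sides. Of 13 lipoprotein clearance genes, 2 were higher in NASH than in control. Lpl, the lipase that heparan sulfate binds, stood at 22.6 FPKM in NASH against 4.203 in control. The second higher gene, the receptor Scarb1, was lost under median-of-ratios and trimmed mean scaling (log2 ratios of 0.39 and 0.43). In TH-treated NASH against NASH 5 of the 13 were lower and 1 higher. Angptl8, an inhibitor of lipoprotein lipase, was 4.12-fold lower at 10.4 against 42.8 FPKM. Angptl4, another, was 1.69-fold higher at 82.8 against 49.1 FPKM. Under median-of-ratios scaling Gpihbp1 was also higher there (log2 ratio 0.61), and Angptl8 was also lower in NASH than in control (-0.60). Of 20 growth factor and receptor genes, 4 were higher and 1 lower in NASH than in control, and with hormone 3 were higher and 5 lower than in NASH. In NASH against control the balance turned under median-of-ratios scaling, to 3 higher and 5 lower: Pdgfa was lost (log2 ratio 0.53), and Fgfr1 (-0.71), Cxcl12 (-0.71), Vegfa (-0.60) and Klb (-0.60) joined the lower genes. Under trimmed mean scaling it was 3 and 3. With hormone, Pdgfb was lost from the lower genes under median-of-ratios scaling (-0.58). Egfr, the receptor of heparin-binding EGF, stood at 63.6 FPKM in control, 23.2 in NASH and 43.3 with hormone. Fgf21, a hormone of the FGF family, stood at 4.47, 9.72 and 24.03 FPKM, and Hgf, a heparan sulfate binding growth factor, at 1.40, 1.85 and 0.654 FPKM.

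**Figure D4:**
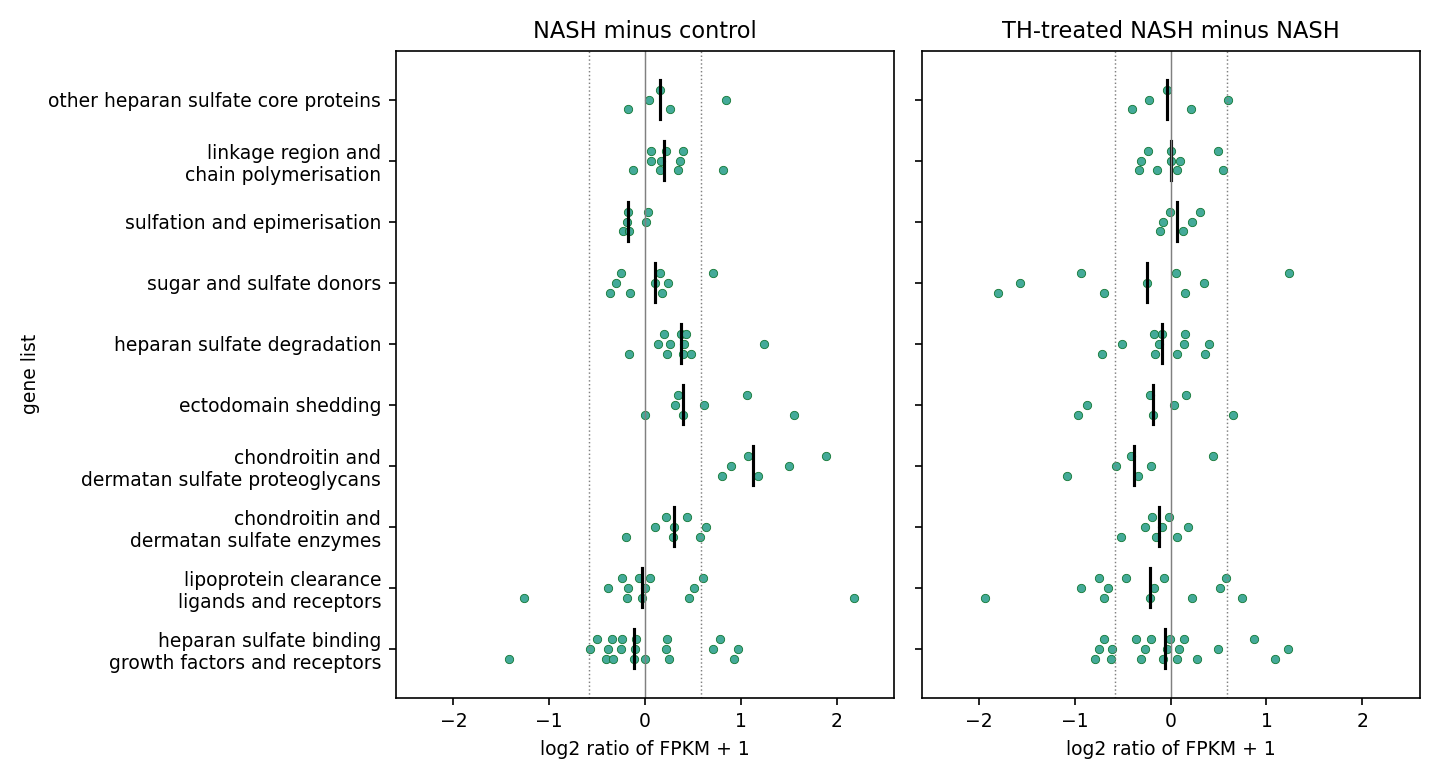
Log2 ratio of FPKM + 1 for each gene of at least 1 FPKM in any library (points) in the 10 pathway lists, with the list median as a black bar and dotted lines at 1.5-fold, for NASH minus control (left) and TH-treated NASH minus NASH (right). The 6 genes of the chondroitin and dermatan sulfate proteoglycan list lie right of the line on the left. Of 9 donor genes, 4 lie left of the line on the right.

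Markers of the cells that can make these proteoglycans also differed between the libraries, and in whole liver fewer cells of a type and less RNA per cell cannot be told apart. Sums below are over whole marker lists and counts over their genes of at least 1 FPKM. Of 12 stellate cell and myofibroblast markers, 8 were higher in NASH than in control and 5 lower in TH-treated NASH than in NASH. Their summed FPKM was 34.0 in control, 80.02 in NASH and 49.4 with hormone, which was above control. Their median log2 ratio was 0.79 and then -0.35. Timp1, in this list too, reached 1 FPKM in NASH alone and so entered its counts only through that library. The collagen chains Col1a1 and Col3a1 stood at 1.31, 6.81 and 1.23 FPKM and at 4.51, 16.7 and 4.43 FPKM, while Rgs5, a pericyte gene, stood at 6.19, 13.1 and 13.4 FPKM and Lrat, the retinol-storing enzyme of stellate cells, at 2.90, 5.43 and 5.11 FPKM. Of 6 portal fibroblast and mesothelium markers, 5 were higher in NASH and 2 lower with hormone, with sums of 27.2, 54.01 and 39.96 FPKM. Of 5 cholangiocyte markers, 2 were higher in NASH and 3 lower with hormone, with sums of 36.7, 107 and 51.6 FPKM. Krt19 is in both the portal and the cholangiocyte list. The part of these cell types in the Sulf2 and Gpc1 values was not tested. Of 11 macrophage and Kupffer cell markers, 10 were higher in NASH than in control, and with hormone 3 were higher and 1 lower than in NASH. Their sums were 100.3, 262 and 428 FPKM, and their median log2 ratio was 1.10 in NASH against control and 0.16 in TH-treated NASH against NASH. With hormone against NASH, the Kupffer cell genes Cd5l and Clec4f stood at 200.2 against 115 and 130 against 59.9 FPKM. The 1 lower gene was Gpnmb, at 0.124 against 5.19 FPKM. Trem2 was also lower with FPKM scaled to equal sums (log2 ratio -0.61). Cd68, a general macrophage gene, stood at 16.0 against 20.3 FPKM, inside the threshold. The part of these cells in the Sdc3 values was not tested. Of 10 liver endothelial markers, 1 was higher in NASH and 0 passed the threshold with hormone, with sums of 82.1, 94.8 and 98.8 FPKM. That endothelial gene, Vwf, was lost under median-of-ratios scaling (log2 ratio 0.55), as were Lrat, Gas6, Timd4, Epcam and Jchain, 1 or more of the genes higher in NASH in the stellate, portal, macrophage, cholangiocyte and plasma cell lists.

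Hepatocyte and blood cell markers are given beside the syndecans and Ndst1. Of 10 hepatocyte markers, 3 were lower in NASH than in control, and with hormone 2 were higher and 2 lower than in NASH, with sums of 54094, 37628 and 34402 FPKM. Under median-of-ratios scaling Apoa1 (log2 ratio -0.62) and Hnf4a (-0.74) were also lower in NASH, which made 5 of 10. Their list median was -0.36 in NASH against control and 0.24 in TH-treated NASH against NASH. Sdc1 is also a plasma cell marker. Of 5 plasma and B cell markers, 2 were higher in NASH and 1 with hormone, with sums of 18.2, 25.2 and 116 FPKM, most of the last from Ighm at 104 FPKM. Against control, 4 of the 5 were higher in TH-treated NASH. The other plasma cell genes with hormone were Jchain at 6.00 FPKM, Mzb1 at 1.33 and Tnfrsf17, which had 0 fragments in control and NASH, at 0.0320. Of 6 listed neutrophil markers 5 reached 1 FPKM, and these were higher in TH-treated NASH than in NASH, with sums of 4.403, 8.16 and 96.8 FPKM. Of 4 erythroid markers 3 were higher there and 1 lower, with sums of 301, 372 and 1654 FPKM. Of 3 T and NK cell markers, 1 was higher in NASH and 0 passed the threshold with hormone, with sums of 2.79, 5.70 and 6.41 FPKM. Of 4 adipocyte markers only Cfd reached 1 FPKM, at 2.64, 44.2 and 0.0849 FPKM in control, NASH and TH-treated NASH, and Adipoq, Lep and Plin1 had 0 fragments in control. The part of these cells in the syndecan and Ndst1 values was not tested.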

How the data were processed

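PolyA RNA of liver was sequenced in 3 libraries, 1 per group. Libraries were made from oligo(dT)-selected mRNA with random priming, per the labels' protocols. The submitters' processing notes name TopHat2 and HTSeq, with versions, strand mode and genome build not given in the sources used here. Per gene, the authors deposited FPKM beside each gene's length in bases. In each library 100% of values above 0, multiplied by length, were whole multiples of 1 step within 0.01 fragment, which gave the fragments. Folds are ratios of FPKM with exact conditional binomial intervals (Clopper-Pearson, 95%), and level intervals are exact Poisson. A count of 0 for a gene of 2 kb allows up to 0.0275 to 0.0392 FPKM, depending on the library (3 counts a library).

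Counts used a pseudocount of 1 FPKM, genes of at least 1 FPKM in any library and 1.5-fold. The members, lists and rules were chosen with earlier results of these data known. Named are all 10 members, up to 4 genes per pathway list and comparison and up to 3 per marker list with the largest ratios, the 5 genes most like Sulf2 and Gpc1, and overlapping genes; other names were chosen after their values were seen. Some results are not reported here. Of the list genes, 3 (Angptl8, Adgre1 and Jchain) carry older symbols in the table and were matched by gene ID. In all 9 alternatives were tried: other pseudocounts, filters and scalings, a 2-fold threshold, and the whole counting interval past 1.5-fold. Steps were tested on simulated data. Python 3.11.15, scipy 1.17.1 and pandas 2.3.3 were used.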

Additional observations from a re-analysis of the deposited data

How the results depend on the processing

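With 1 library a group, no value here has a check between animals, and no library could be left out. No paired analysis was possible because each group holds 1 library and the labels give no replicate numbers. Over 9 alternatives, the count of 3 members higher in NASH than in control stayed the same. So did the 1 higher and 1 lower in TH-treated NASH than in control. Sulf2 and Gpc1 are among the 3, and among those lower in TH-treated NASH than in NASH. They were picked for both, so these counts are no check on them. Sdc3, the other of the 3, was not so picked, and its lowest log2 ratio of NASH to control was 0.88. The count of members lower in NASH than in control, 0 as deposited, was 2 under median-of-ratios scaling and 1 under trimmed mean scaling, which lower NASH relative to control. The count higher in TH-treated NASH than in NASH, 1 as deposited, was 3 under median-of-ratios scaling and 0 at a threshold of 2-fold; the count lower ranged from 2 to 3. None of the 246 member ratios recomputed turned the sign of a called value. Of them 181 stayed inside the counting interval and 65 did not. The 181 include all ratios under the other filters, the 2-fold threshold and the interval rule, which leave a ratio as it was. Of 1134 list counts recomputed, 959 stayed within 1.5 times the value reported. Counts over all genes ranged from 367 to 1929 (1222 as reported) for higher and 89 to 534 (299) for lower in NASH against control, from 320 to 1318 (996) and 325 to 1597 (1068) in TH-treated NASH against NASH, and from 639 to 2472 (1830) and 278 to 1305 (812) in TH-treated NASH against control. Depth limits Sulf1 alone of the 10 genes, with 15 fragments in control.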
